A study of Mus musculus with 4 samples.

Results

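The miR-30 family was examined in purified mouse Sertoli cells, which nurse the developing germ cells inside the seminiferous tubule. Its members were chosen by name among the mouse miRNAs of the array, which gave 6 of 567: the guide strands mmu-miR-30a, mmu-miR-30b, mmu-miR-30c, mmu-miR-30d and mmu-miR-30e, and the passenger strand mmu-miR-30c-1*, written below without the species prefix. The guide strand is the arm of the hairpin that is usually loaded into the silencing complex, and the passenger strand, marked with an asterisk, is the other arm. RNA came from adult B6129 male mice in 3 groups. Sham mice were the controls (1 array). Flut+Acy mice received the androgen receptor blocker flutamide with acyline, an antagonist of gonadotropin-releasing hormone that lowers testosterone (2 arrays). Flut+Acy+T mice received both drugs together with testosterone (1 array). The labels name the drug groups by flutamide and by testosterone only, and acyline is taken from the study's methods. The study pooled Sertoli cells of several mice by group for these arrays, and whether the 2 Flut+Acy arrays carried separate pools or the same one is not given in the sources used here.

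A miRNA pairs with target transcripts mainly through its seed, bases 2 to 8 from the 5′ end, and lowers the translation or the stability of those transcripts. The miR-30 guide strands share a seed and are therefore expected to overlap in their targets. The family is widely expressed, is known for its part in keeping epithelial cells differentiated, and is known as a hormone-sensitive family in Sertoli cells. It is made from 3 pairs of neighbouring hairpins. Mir30a and Mir30c-2 lie on chromosome 1, 19432 bases apart, Mir30b and Mir30d on chromosome 15, 3793 bases apart, and Mir30c-1 and Mir30e on chromosome 4, 3072 bases apart, inside the protein-coding gene Nfyc (distances between starts, RefSeq annotation of GRCm38.p6). Mature miR-30c is made from 2 hairpins, one on chromosome 1 and one on chromosome 4.

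The sequences show what the array had to tell apart. They are the RefSeq mature sequences (GRCm38.p6), written 5′ to 3′ with the seed in capitals, for the 4 members that had an entry and for miR-384-5p, the non-member on the array with the same seed.

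miR-30a: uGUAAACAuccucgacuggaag
miR-30e: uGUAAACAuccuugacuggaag
miR-30c: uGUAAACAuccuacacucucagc
miR-30c-1*: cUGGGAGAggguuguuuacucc
miR-384-5p: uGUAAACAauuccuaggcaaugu

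The guide strands printed here are identical over their first 12 bases. miR-30a and miR-30e differ by 1 base of 22, C13U (positions counted from 1 at the 5′ end of miR-30a). miR-30a and miR-30c differ at 5 of 22 compared bases, C13A, G14C, G18C, G19U and A20C. miR-30c-1* has a different seed, which it shares with miR-30c-2* (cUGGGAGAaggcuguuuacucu), the passenger strand of the other miR-30c hairpin. Whether the probes of one member also bound another was not tested.

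Each miRNA was measured by short probes matched to a stretch of its genomic position in mm9. The matched stretches lie at chr1:23279118-23279134 for miR-30a, chr15:68169031-68169047 for miR-30b, chr1:23298558-23298575 for miR-30c, chr15:68172819-68172832 for miR-30d, chr4:120445265-120445281 for miR-30e and chr4:120442151-120442169 for miR-30c-1*. Every member had 20 spots. The 5 guide strands were covered by 11 probes of 13 to 18 matched bases, and no spot of a member was saturated. The scanner software sums the probes of a miRNA into a total signal in arbitrary units, with an error that includes a fixed 10% for each probe, and it flags whether the miRNA was detected. Total signals are compared here between arrays for the same miRNA and not between miRNAs, because probes differ in how strongly they respond.

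The arrays differed in overall signal and in noise. The positive total signals added up to 57940 for Sham, to 139602 and 161460 for Flut+Acy and to 201919 for Flut+Acy+T. Negative-control spots had an SD of 2.72 to 7.45 on the first 3 arrays and of 1326 on the Flut+Acy+T array, where 102 of 567 miRNAs were detected against 193 on Sham and 270 to 275 on Flut+Acy. Whether a miRNA was detected is therefore given for the Flut+Acy+T array.

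Markers of the cells that such a preparation can hold were read on the same arrays. Of the Sertoli-associated miRNAs, miR-202-3p was detected in Sham (total signal 103) and both Flut+Acy samples (312 and 339) but not in Flut+Acy+T (8.25), and miR-202-5p was detected in the Flut+Acy samples only. The 3 germ cell miRNAs (miR-34b-5p, miR-34c and miR-449a) summed to a total signal of 475 in Sham, 7081 and 7333 in Flut+Acy, and 2924 in Flut+Acy+T, where 2 of the 3 were detected. Before normalization, their median log2 ratio of Flut+Acy to Sham was 4.06 to 4.09. The study lists the same 3 miRNAs among those altered by Flut+Acy in purified Sertoli cells. Whether their signal follows the germ cell content of the samples was not tested. All 4 muscle miRNAs and 3 of 4 blood miRNAs were detected in Sham and in each Flut+Acy sample, with miR-144 detected on none of the 4 arrays. Their summed total signals were 1616 (muscle) and 229 (blood) in Sham, 2375 to 2844 and 361 to 404 in Flut+Acy. On Flut+Acy+T, 2 of the 4 muscle miRNAs and 0 of the 4 blood miRNAs were detected, so that the sums there, 4166 for muscle and 794 for blood, hold undetected signal in part and in whole. Both endothelial miRNAs were detected on Sham and Flut+Acy, with sums of 649 in Sham and 1986 to 2155 in Flut+Acy, and 1 of the 2 on Flut+Acy+T, with a sum of 4013. The part of these cells in the miR-30 values was not tested, and in a bulk preparation fewer cells of a type and less RNA per cell cannot be told apart.

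Before any normalization between arrays, the 5 guide strands gave their lowest signals on the Sham array. miR-30a had a total signal of 296 ± 19.99 (scanner error) on Sham, 980 ± 66.1 and 1114 ± 74.999 for the Flut+Acy pair, and 1249 ± 132 on Flut+Acy+T. miR-30e, which differs from it by a single base, had 136 ± 12.0 on Sham, 517 ± 44.1 and 636 ± 53.3 for the Flut+Acy pair, and 617 ± 134 on Flut+Acy+T. Both were lowest on Sham, and the values of the other 3 arrays lay closer to each other than to Sham.

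miR-30b had a total signal of 102 ± 9.84 on Sham, 358 ± 32.7 and 461 ± 41.8 for the Flut+Acy pair, and 549 ± 133 on Flut+Acy+T. Its hairpin neighbour miR-30d had 108 ± 8.24 on Sham, 283 ± 20.7 and 351 ± 25.5 for the Flut+Acy pair, and 277 ± 125 on Flut+Acy+T, where it was not detected and none of its 20 spots was well above background. miR-30d was the only guide strand not detected on all 4 arrays.

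miR-30c had a total signal of 360 ± 34.1 on Sham, 923 ± 84.8 and 987 ± 88.1 for the Flut+Acy pair, and 1465 ± 175 on Flut+Acy+T, its highest value. The passenger strand miR-30c-1* lay near the limit of the assay, with 3.84 ± 1.79 on Sham, 4.82 ± 1.94 and 8.38 ± 2.83 for the Flut+Acy pair, and 114 ± 88.2 on Flut+Acy+T, where it was not detected. On Sham and Flut+Acy its signal came from the longest of its 4 probes, whose totals were 3.995, 5.58 and 7.08. Of the seed-sharing non-member, miR-384-5p, no signal was detected on any array.

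**Figure D1:**
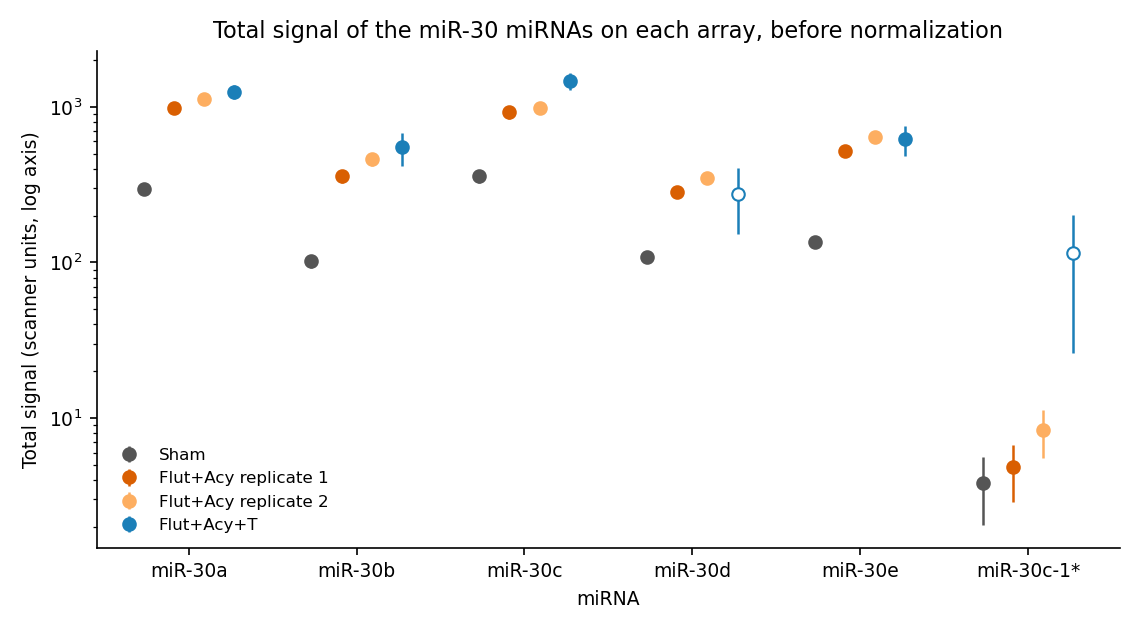
Total signal (scanner units, log axis) of the 6 miR-30 miRNAs on the 4 arrays, before normalization between arrays. Error bars are the scanner's error, filled points were detected and open points were not; each guide strand is lowest on Sham, and the Flut+Acy+T values of miR-30d and miR-30c-1* were not detected.

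The size of this rise has to be read against that of other miRNAs, since most total signals were higher in Flut+Acy. Over the 189 miRNAs detected in Sham and in each Flut+Acy sample, the median log2 ratio to Sham was 1.42 on Flut+Acy replicate 1 and 1.66 on replicate 2. miR-30e was above this median on both arrays, at 1.93 ± 0.18 and 2.23 ± 0.18 (scanner error of the log2 ratio). miR-30b was also above it, at 1.80 ± 0.19 and 2.17 ± 0.19, and so was miR-30a, at 1.73 ± 0.14 and 1.91 ± 0.14. miR-30d was close to the median, at 1.39 ± 0.15 and 1.70 ± 0.15. miR-30c was the lowest guide strand on both arrays, at 1.36 ± 0.19 and 1.46 ± 0.19. The placing depends on the reference. Over the 76 miRNAs detected on all 4 arrays the medians were 1.06 and 1.46. miR-30d lay above these by 0.33 and 0.24, and miR-30c by 0.30 on replicate 1 and -0.0015 on replicate 2.

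The order miR-30e, miR-30b, miR-30a, miR-30d, miR-30c was the same on both Flut+Acy arrays. miR-30e exceeded its neighbour miR-30b by 0.13 ± 0.26 and 0.06 ± 0.26, and miR-30d exceeded miR-30c by 0.03 ± 0.24 and 0.25 ± 0.24. miR-30b exceeded miR-30a by 0.08 ± 0.24 and 0.26 ± 0.24, and miR-30a exceeded miR-30d by 0.33 ± 0.21 and 0.21 ± 0.21. Each difference between neighbours was thus under 2 errors, and on replicate 1 only that of miR-30a and miR-30d was larger than its error. The ends of the order were farther apart, miR-30e exceeding miR-30c by 0.57 ± 0.26 and 0.77 ± 0.26. Differences of this kind, taken between 2 miRNAs on the same pair of arrays, do not change with a scaling factor of the array. They rest on 1 Sham array, were looked at after the values were seen, and were not tested.

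**Figure D2:**
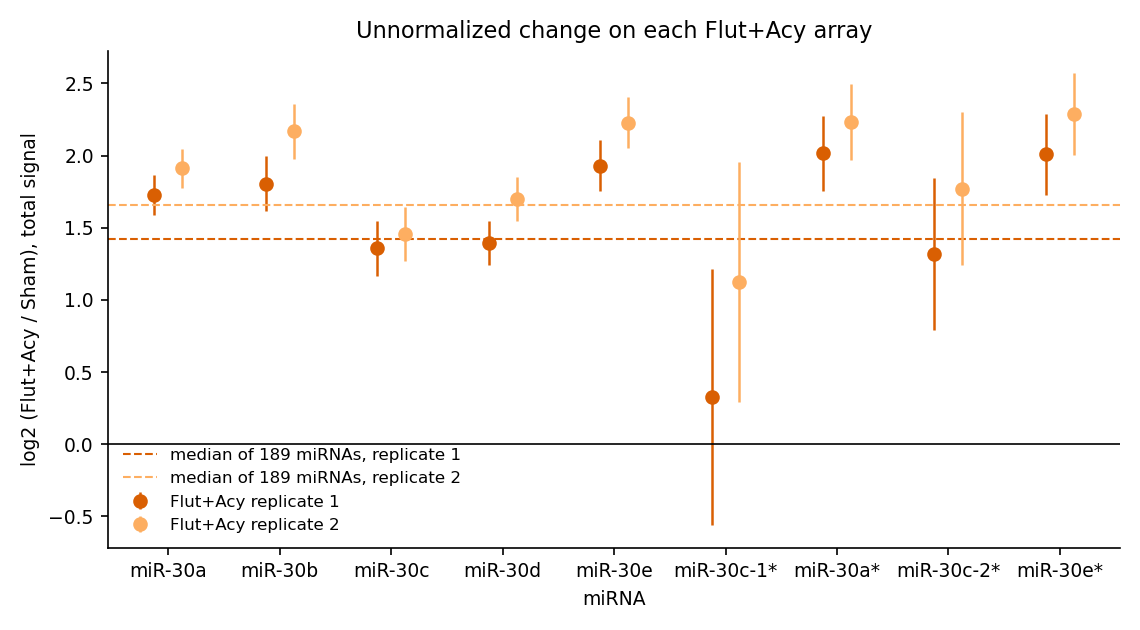
Log2 ratio of total signal to Sham on each Flut+Acy array for the miR-30 guide strands and passenger strands detected on all 3 arrays, with the scanner's error; dashed lines are the medians of the 189 miRNAs detected on these arrays (1.42 and 1.66). miR-30a, miR-30b and miR-30e lie above the lines and miR-30c lies at or below them.

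On the Flut+Acy arrays, the probes of a guide strand gave like values. On Flut+Acy replicate 1 the probes of 1 miRNA were apart by 0.07 (miR-30e) to 0.22 (miR-30a) on the log2 scale, and on replicate 2 by 0.07 (miR-30d) to 0.28 (miR-30c). The probes of miR-30c ranged from 1.34 to 1.49 and from 1.43 to 1.70, and those of miR-30e from 1.92 to 1.99 and from 2.20 to 2.35. On each array, both miR-30c probes were thus below both miR-30e probes. On Flut+Acy+T the probes of a guide strand were apart by 0.11 (miR-30b) to 1.09 (miR-30c), and 5 of the 11 had no spot well above background.

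**Figure D3:**
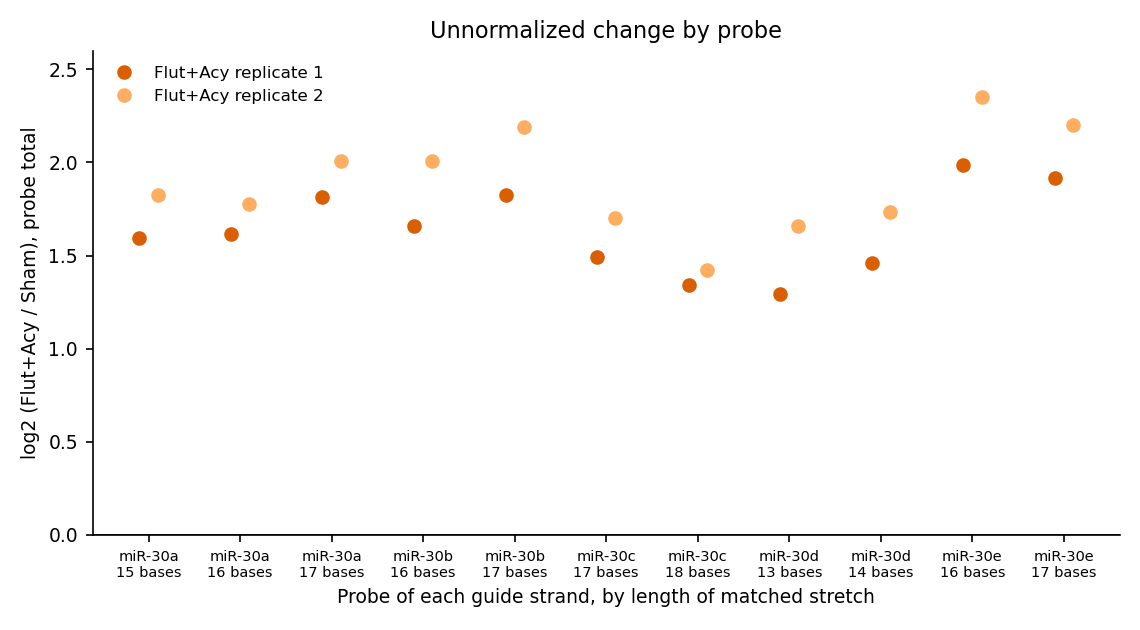
Log2 ratio of probe total signal to Sham for the 11 probes of the guide strands on each Flut+Acy array, ordered by miRNA and by the length of the matched stretch (13 to 18 bases). Every probe lies above 0, and the probes of miR-30c lie below those of miR-30e on the same array.

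The other arms of the miR-30 hairpins on the array, miR-30a*, miR-30b*, miR-30c-2* and miR-30e*, were dim. miR-30a* had a total signal of 17.6 ± 2.81 on Sham and 71.5 ± 6.02 and 82.8 ± 7.26 on Flut+Acy, a log2 ratio of 2.02 ± 0.26 and 2.23 ± 0.26. miR-30e*, which shares its seed with miR-30a*, had 16.8 ± 2.87 on Sham and 67.7 ± 6.10 and 82.1 ± 7.81 on Flut+Acy, a log2 ratio of 2.01 ± 0.28 and 2.29 ± 0.28. The log2 ratio of miR-30e* exceeded that of miR-30e from the same hairpin by 0.08 ± 0.33 and 0.06 ± 0.33, and that of miR-30a* exceeded that of miR-30a by 0.29 ± 0.29 and 0.32 ± 0.30. Both passenger strands thus moved like their guide strands within about the size of the scanner's error.

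miR-30c-2* had 8.04 ± 2.62 on Sham and 20.1 ± 3.27 and 27.5 ± 4.69 on Flut+Acy, a log2 ratio of 1.32 ± 0.53 and 1.77 ± 0.53, which overlaps that of miR-30c. miR-30b* was detected on 1 array, Flut+Acy replicate 2, with 9.87 ± 2.80. None of these 4 arms was detected on Flut+Acy+T.

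The family made up a small part of the array's signal. Its 6 members made up 1.74% of the summed positive total signal in Sham, 2.20% in each Flut+Acy sample and 2.12% in Flut+Acy+T, where 2 of the 6 were not detected. The same share was 22.5% in Sham, 16.7% and 17.4% in Flut+Acy and 18.6% in Flut+Acy+T for the 9 let-7 and miR-98 miRNAs, a family known for its role in differentiation, and 3.52%, 4.61%, 4.21% and 3.51% for miR-29a, miR-29b and miR-29c, known regulators of extracellular matrix genes. These are shares of signal and not of molecules, because probes differ in how strongly they respond. The families are therefore not ranked by abundance here, and each share is read between arrays only. The miR-30 share was lowest in Sham, which has no replicate, and no test was made of it.

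The comparison of Flut+Acy with Sham asks which miRNAs follow the treatment with both drugs. Loss of androgen action and the block of gonadotropin-releasing hormone came together in this group and cannot be told apart in this comparison. After quantile normalization, which gives every array the same set of values, the guide strands lay at or slightly below their Sham level, a direction that turned under other scalings given below. The log2 difference (Flut+Acy minus Sham) was -0.03 for miR-30e, -0.04 for miR-30a, -0.07 for miR-30b, -0.40 for miR-30c and -0.50 for miR-30d. None of the 5 passed limma's threshold of an adjusted p of 0.05 or the methods' Tukey comparison. With 1 residual degree of freedom Tukey's comparison rarely passes, so this does not show that the levels were equal. In limma, 2 of the 5 had an unadjusted p under 0.05. These were miR-30c (standard error 0.05, adjusted p = 0.0580) and miR-30d (standard error 0.07, adjusted p = 0.0716). The adjusted p was 0.324 for miR-30a, 0.636 for miR-30b and 0.858 for miR-30e.

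limma called 1 of the 6 members, miR-30c-1*, as lower, against 54.0% of the 298 miRNAs tested in either direction and 28.5% called as lower. That call (log2 difference -2.61, adjusted p = 0.00436) rests on the floor of 5.46 units below which normalized values were not followed. The normalized signal of miR-30c-1* was 33.5 on Sham and 4.24 and 5.42 on Flut+Acy, both set to the floor, so the Flut+Acy pair had no spread. Its unnormalized signal was lowest on Sham, and without normalization the log2 difference was 0.73 (adjusted p = 0.234). The median log2 difference was -0.24 over the 6 members and -0.15 over all miRNAs tested.

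The sign of the guide strands depended on the scaling. They ranged from 0.06 to 0.73 when arrays were scaled to the 75th percentile of the miRNAs detected on all 4 arrays. The range was -0.77 to -0.10 with the 75th percentile of all mouse miRNAs, and 1.41 to 2.08 without normalization. Over all miRNAs tested, the median log2 difference in these settings was 0.35, -0.31 and 1.68 in turn, so the shifts were shared by the whole array. miR-30c lay below miR-30a, miR-30b and miR-30e after quantile normalization of all arrays or of Sham and Flut+Acy alone, without normalization, with processed spot signals, with normexp, in the deposited table and with either Flut+Acy array left out. Scaling each array by a factor cannot change this order, and neither did the filters and floors move these values, so they add nothing to it. limma called miR-30c as lower in 5 of 11 other tested settings (adjusted p = 0.0207 to 0.0419) and as higher in 1, that without normalization. miR-30d was below the same 3 miRNAs in those settings other than normexp.

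The test has narrow support. All p-values rest on 1 residual degree of freedom, from the Flut+Acy pair, whose spread may be technical, and the single arrays of the other groups are assumed to vary like that pair. After quantile normalization and the floor, both Flut+Acy arrays had the same value for 55 of the 298 miRNAs, some of them, such as miR-30c-1*, through the floor.

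**Figure D4:**
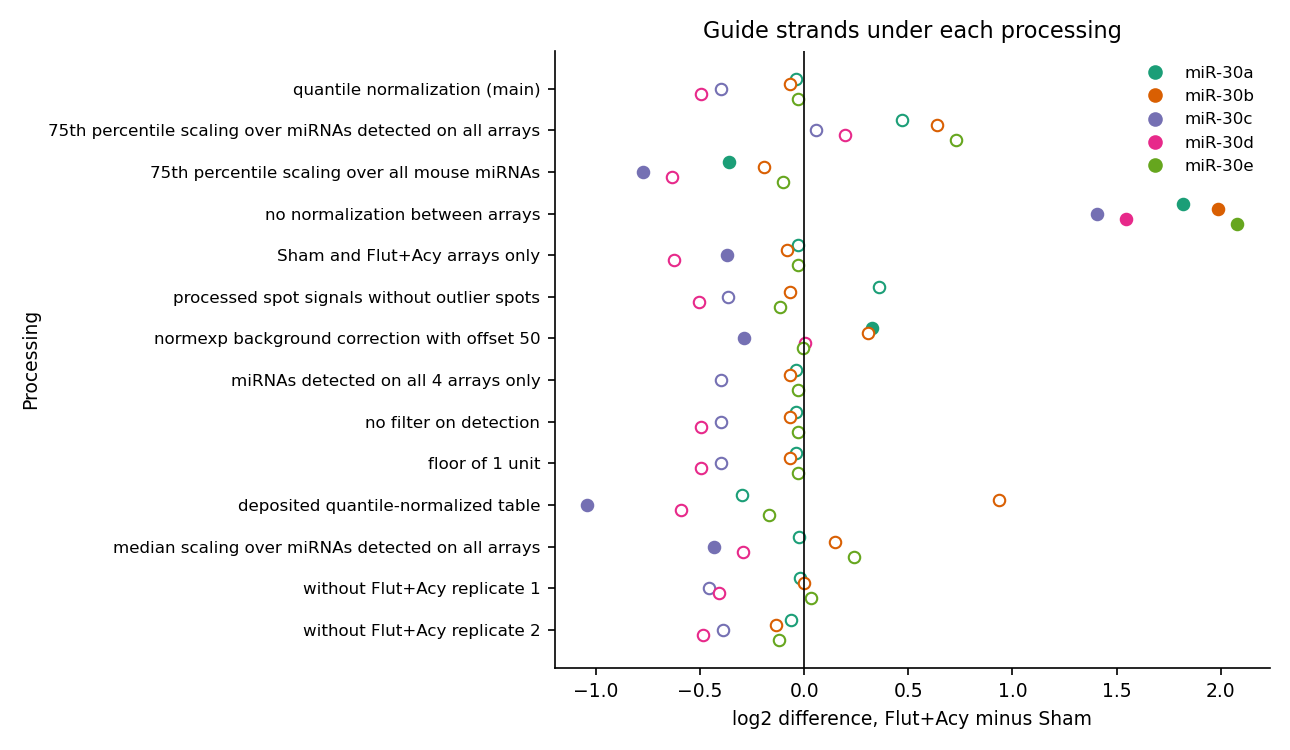
Log2 difference of the 5 guide strands, Flut+Acy minus Sham, under each processing setting; filled points had a limma adjusted p under 0.05, and the settings without a Flut+Acy replicate have no test. The values run from -1.04 to 2.08, and miR-30c lies left of miR-30a, miR-30b and miR-30e in each row.

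The comparison of Flut+Acy+T with Flut+Acy asks what testosterone changes in mice given the drugs. Among the guide strands, miR-30c was higher on Flut+Acy+T and miR-30d lower, while the other 3 did not pass the test. The normalized log2 signal of miR-30c was 10.02 on Sham, 9.66 and 9.59 for the Flut+Acy pair and 10.09 on Flut+Acy+T, so both Flut+Acy arrays lay below the other 2. Its log2 difference from Flut+Acy was 0.47 (standard error 0.05, limma adjusted p = 0.0365). Of 10 other tested settings, 3 called it as higher. Those with miRNAs detected on all 4 arrays only and with a floor of 1 unit left its difference at 0.47, so they repeat the main value. The other was median scaling (0.45). It was called as lower in 1 setting (-1.01, adjusted p = 0.0101, with the 75th percentile of all mouse miRNAs), and the largest adjusted p was 0.298. Its probes did not give the same size of rise: before normalization, the log2 ratio of Flut+Acy+T to Sham was 1.87 for the probe of 18 matched bases and 2.97 for that of 17, of which 1 of 10 spots was well above background on Flut+Acy+T.

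miR-30d had normalized log2 signals of 8.75 on Sham, 8.20 and 8.30 for the Flut+Acy pair and 6.98 on Flut+Acy+T, where it was not detected. Its normalized value on Flut+Acy+T was 2.42-fold below the mean of the Flut+Acy pair (limma adjusted p = 0.0186). Against Sham it was 3.42-fold below (limma adjusted p = 0.0199). Neither fold is a lower bound, because the undetected value (126 units) lay above that array's lowest detected normalized signal (104 units). Its scanner error before normalization was 125 on a signal of 277, so the differences may be smaller or larger. Both folds depend on the normalization. The unnormalized signal of miR-30d on Flut+Acy+T (277) was above that on Sham (108). Without normalization the log2 difference from Flut+Acy was -0.19 (limma adjusted p = 0.535).

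miR-30a, miR-30b and miR-30e differed from Flut+Acy by 0.02 (adjusted p = 0.621), -0.13 (adjusted p = 0.405) and -0.35 (adjusted p = 0.146). limma called 3 of the 6 members in this comparison (miR-30c and miR-30c-1* higher, miR-30d lower), against 75.2% of all miRNAs tested, 53.7% as lower and 21.5% as higher. The call of miR-30c-1* (2.97, adjusted p = 0.00149) compares an undetected signal with values at the floor and measures no level. The median log2 difference was -0.06 over the members and -1.08 over all miRNAs tested, of which most were not detected on Flut+Acy+T.

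The difference of miR-30c was above those of miR-30a, miR-30b and miR-30e after quantile normalization, without normalization (where a scaling factor cannot change the order), with processed spot signals, with normexp, in the deposited table and with either Flut+Acy array left out. This comparison and that of Flut+Acy with Sham share the Flut+Acy arrays, so a low value there moves both in opposite directions. Without normalization the differences were 0.62 for miR-30c and 0.43 for miR-30b, and the gap was not tested. All settings reprocess the same arrays. For Flut+Acy+T against Sham the order did not hold. There miR-30c lay above the same miRNAs in 6 of 13 settings, all of them quantile normalization of the total signals with its filters, floors or left-out arrays. It lay below them in 4, the setting without normalization and the scalings by a factor, which share 1 order. With processed spot signals, normexp and the deposited table it lay neither above nor below all of them. The counts are thus not of independent results.

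The comparison of Flut+Acy+T with Sham asks whether testosterone brings the drug-treated cells back to the control level. miR-30a differed by -0.02 (adjusted p = 0.581), miR-30b by -0.20 (adjusted p = 0.336), miR-30c by 0.07 (adjusted p = 0.461) and miR-30e by -0.38 (adjusted p = 0.1801). The 4 guide strands detected on both arrays thus did not pass the test, which with 1 array on each side does not show that they were equal. limma called 2 of the 6 members, miR-30d as lower (-1.77, not detected on Flut+Acy+T) and miR-30c-1* as higher (0.36, not detected on Flut+Acy+T), against 65.8% of all miRNAs tested, 48.3% as lower and 17.4% as higher. The median log2 difference was -0.11 over the members and -0.47 over all miRNAs tested.

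The miRNAs nearest to the family in pattern were sought among the 72 non-members detected on all 4 arrays, by the Euclidean distance over the 4 arrays between their centred log2 signals and the mean of the guide strands. They were miR-103 (0.25), miR-29c (0.26) and miR-107 (0.31). That mean includes the undetected Flut+Acy+T value of miR-30d, and it went, centred on its average, from 0.22 on Sham to -0.02 and 0.05 for the Flut+Acy pair and -0.24 on Flut+Acy+T. Over the 4 guide strands detected on every array, a mean chosen after seeing the data, it went from 0.10 on Sham to -0.07 and -0.0019 for the Flut+Acy pair and -0.03 on Flut+Acy+T. The nearest miRNAs were then miR-29c (0.03), miR-1224 (0.13) and miR-199b (0.16), so that of the 3 named first miR-29c alone was named again. miR-1224 had the same normalized log2 signal, 13.63, on all 4 arrays. From this mean miR-30a (0.09) and miR-30b (0.12) lay closest, followed by miR-30e (0.29) and miR-30c (0.40).

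The same count over the other families read for comparison was as follows. In Flut+Acy against Sham, limma called 4 of the 9 let-7 and miR-98 miRNAs as lower and 0 of the 3 miR-29 miRNAs, with medians of -0.37 and 0.17. Of those 3, 1 had an unadjusted limma p under 0.05. In Flut+Acy+T against Flut+Acy it called 3 of the 9 as higher and 2 as lower, and 1 of the 3 miR-29 miRNAs as lower. Of all miRNAs tested, 28.5% were called as lower and 25.5% as higher in Flut+Acy against Sham. In Flut+Acy+T against Flut+Acy these shares were 53.7% and 21.5%.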

How the data were processed

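RNA from 4 Sertoli cell samples was hybridized to single-channel Agilent miRNA arrays. The authors extracted the scans with Feature Extraction 9.5.3.1 (mm9 design, per the file headers) and deposited intensities on a linear scale: background-subtracted spot, probe and total signals with errors and detection flags, not normalized between arrays. They also deposited a quantile-normalized table of intensities, made in MATLAB per the methods, used here as an alternative.

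Here, quantile normalization was applied to the total signals of the 567 mouse miRNAs, and values under 5.46 units (each array's lowest normalized signal of a detected miRNA, then the median of the 4) were raised to it before taking log2. limma 3.58.1 in R 4.3.3 fitted 3 groups and p-values were adjusted by Benjamini-Hochberg over 298 miRNAs, those detected anywhere. The number of arrays limits the precision. The fit was tested on simulated data. Groups came from the sample titles.

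The text names the 6 members, the other miR-30 arms, the miRNA with the same seed and the 3 nearest in pattern to each mean of the guide strands. Cell type markers and the let-7 and miR-29 families were read for comparison. Members, lists and tests were chosen with earlier results of these data known. The alternatives were other scalings, background correction, spot summaries, filters, floors, the deposited table (floored at 1 unit), each Flut+Acy array left out, and the methods' analysis of variance with Tukey's comparison (SciPy 1.17.1). Median scaling was added after seeing the data. RefSeq sequences matched 4 of the 6 members.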

Additional observations from a re-analysis of the deposited data

How the results depend on the processing

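No paired analysis was possible because only the Flut+Acy samples carry replicate numbers. Sham and Flut+Acy+T have 1 array each, so a difference from either cannot be told apart from that array, and the noise of Flut+Acy+T limits what could be detected there. For Flut+Acy against Sham, 1 member was called and the median of the members was -0.24. With scaling to the 75th percentile of the miRNAs that all 4 arrays detected, 0 were called (median 0.33), over all mouse miRNAs 3 (-0.50), without normalization 5 (1.68), with Sham and Flut+Acy arrays only 2, with processed spot signals 0, with normexp 3 (-0.00023), with miRNAs detected on all 4 arrays 0 of 4 (-0.055), and with Tukey's comparison 0 before and 0 after adjustment, miR-30c-1* having no spread to test. The median of the members was -0.45 in the deposited table and -0.16 with median scaling, and -0.26 to -0.22 when a Flut+Acy array was left out. Over all miRNAs tested, 75th percentile scaling gave a median of 0.35 (detected miRNAs) and -0.31 (all mouse miRNAs). That median was 1.68 without normalization, -0.06 with normexp and -0.11 in the deposited table. The share of all miRNAs called under each alternative setting is not given here, so the counts cannot be set against it.

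For Flut+Acy+T against Flut+Acy, 3 members were called and the median was -0.06. The same settings gave a median of -0.18 with 75th percentile scaling over detected miRNAs, 6 called (-1.28) over all mouse miRNAs, 1 (0.35) without normalization, a median of -0.39 with processed spot signals, 5 (-0.54) with normexp, 1 with miRNAs detected on all 4 arrays, 1 without a filter, a median of -1.19 in the deposited table and 0.18 with median scaling, and 0 and 0 with Tukey's comparison. Leaving out a Flut+Acy array gave -0.080 to -0.020. Over all miRNAs tested, 75th percentile scaling gave a median of -0.65 (detected miRNAs) and -1.24 (all mouse miRNAs) in this comparison. That median was -0.26 without normalization, -0.81 with processed spot signals, -0.31 with normexp, -1.71 in the deposited table and -0.29 with median scaling. For Flut+Acy+T against Sham, 2 were called and the median was -0.11. The settings gave 1 (0.26) with 75th percentile scaling over detected miRNAs, 5 (-1.68) over all mouse miRNAs, 6 (2.13) without normalization, a median of -0.30 with processed spot signals and -0.31 with normexp, 0 with miRNAs detected on all 4 arrays, 1 without a filter, 1 with a floor of 1 unit, 4 (-1.35) in the authors' deposited values, 1 (0.12) with median scaling, and 0 and 0 with Tukey's comparison. Leaving out a Flut+Acy array gave -0.12 to -0.091. Over all miRNAs tested, 75th percentile scaling gave a median of 0 (detected miRNAs) and -1.39 (all mouse miRNAs) in this comparison. That median was 1.55 without normalization, -0.40 with processed spot signals, -0.08 with normexp, -0.90 in the deposited table and 0 with median scaling. For neither of these comparisons is the share of all miRNAs called under each alternative setting given here. The counts of members called cannot be set against it.

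Of the 18 differences of single members, 16 had the opposite sign under at least 1 setting, in 45 values in all, of which 4 were of differences that had passed the test. One of the 45 was miR-30e in Flut+Acy against Sham, at 0.034 without Flut+Acy replicate 1. For Flut+Acy against Sham, 75th percentile scaling over detected miRNAs gave 0.47 for miR-30a, 0.64 for miR-30b, 0.057 for miR-30c, 0.20 for miR-30d and 0.73 for miR-30e. Without normalization these were 1.82, 1.99, 1.41, 1.55 and 2.08, and 0.73 for miR-30c-1*. Median scaling gave 0.15 for miR-30b and 0.24 for miR-30e, the deposited values 0.93 for miR-30b, normexp 0.33 for miR-30a, 0.30 for miR-30b and 0.0033 for miR-30d, and processed spot signals 0.36 for miR-30a.

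For Flut+Acy+T against Flut+Acy, miR-30a was -1.37 with the 75th percentile of all mouse miRNAs, -0.27 with that of detected miRNAs, -1.72 in the deposited table, -0.33 with normexp and -0.25 with processed spot signals. miR-30c was -1.01 with the 75th percentile of all mouse miRNAs, miR-30b was 0.43 without normalization and 0.27 with median scaling, and miR-30e was 0.11 without normalization. For Flut+Acy+T against Sham, no normalization gave 2.08 for miR-30a, 2.42 for miR-30b, 1.36 for miR-30d and 2.19 for miR-30e. The 75th percentile of detected miRNAs gave 0.20, 0.55 and 0.31 for miR-30a, miR-30b and miR-30e, and median scaling 0.066, 0.41 and 0.18. miR-30c was -1.78 with the 75th percentile of all mouse miRNAs, -0.68 in the deposited table, -0.17 with normexp and -0.019 with processed spot signals. miR-30b was 0.28 in the deposited table, miR-30a 0.11 with processed spot signals and miR-30c-1* -0.15 with normexp. Beyond the change of scale that each setting makes, the causes were not tested.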
